A study of Mus musculus with 4 samples.

Results

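The genes described here are the growth factor genes of the fibroblast (FGF), platelet-derived (PDGF), insulin-like (IGF), vascular endothelial (VEGF) and hepatocyte (HGF) families, with their receptors and the IGF binding proteins. They were picked from the expression tables by gene symbol alone, which gave 50 of 23746 rows: 27 of the FGF family, 9 of the IGF family, 7 of the PDGF family, 6 of the VEGF family and Hgf. PolyA RNA was sequenced from 4 primary mammary tumors of female mice. Tumors 26043 and 26044 came from WapCreC;Rank;Brca1;p53 females (triple-mutant) and tumors 26048 and 26050 from WapCreC;Brca1;p53 females (double-mutant). In every tumor floxed Brca1 and p53 were deleted by Cre from the Wap promoter, which in this line is active in mammary epithelial cells, and floxed Rank, the receptor of RANKL, was deleted in triple-mutant tumors only. Stromal, vascular and immune cells of a tumor keep the undeleted alleles. The study describes the genotypes as littermates, but the litter, age and grade of each sequenced tumor were not in the sources used here. The study reports high-grade tumors among double-mutant mice and none among triple-mutant mice. Grade was thus tied to genotype in this model, and its part in the values was not tested. The comparison addresses how growth factor genes differ between Brca1;p53-mutant mammary tumors with and without deletion of Rank.

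FGF, PDGF, IGF and VEGF ligands bind receptor tyrosine kinases on the cell surface. Most secreted FGFs need heparan sulfate as a coreceptor, and IGF binding proteins hold IGFs outside the cell. PDGFs act mainly on mesenchymal cells and pericytes, and VEGFs act mainly on blood and lymphatic endothelium. In the mammary gland FGFR2 is known for its role in formation of the gland and branching of the ducts, IGF-1 for pubertal growth and IGFBP-5 for involution after lactation.

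Values are FPKM (fragments per kilobase of transcript, scaled to the mapped fragments of each tumor), and differences are log2(FPKM + 1) of triple-mutant minus double-mutant tumors with a standard error (SE) from limma, fitted over all 12752 genes that reached 1 FPKM in at least 2 of the 4 tumors. Each genotype has 2 tumors, and an exact permutation test of 2 against 2 cannot go below p = 0.3333. As a check of the labels, Rank (Tnfrsf11a) was at 2.07 and 0.962 FPKM in the triple-mutant and 10.6 and 11.9 FPKM in the double-mutant tumors. Gene-level FPKM of Brca1 (3.26 to 5.69) and Trp53 (15.7 to 150) do not show whether a floxed exon is missing. Depth in reads is not known from FPKM. In bulk tumors fewer cells of a type and less RNA per cell cannot be told apart.

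Of the 50 genes, 17 stayed under 1 FPKM in all 4 tumors, including 3 listed at 0 throughout (Fgf5, Fgf6 and Igfbp1), 6 reached 1 FPKM in exactly 1 tumor, and 27 passed the filter and were tested. No tested gene of these families passed the threshold, and 0% of all genes did (limma, adjusted p under 0.05, 12752 tested). At an unadjusted p under 0.05, limma gave 7 of the 27, or 25.9%, against 9.82% of all genes tested, and limma without its mean-variance trend also gave 0 at the adjusted and 7 at the unadjusted threshold. The genotypes did not overlap for 44.4% of the 27 genes, against 44.3% of all genes. Both triple-mutant tumors lay above both double-mutant tumors for 10 of 27 genes (37.0%, against 21.3% of all genes), and both double-mutant tumors lay above for 2 (7.41%, against 22.9%). With a difference of at least 1 log2 unit, the counts were 8 toward the triple-mutant tumors (7.3% of all genes) and 1 toward the double-mutant tumors (4.65% of all genes). The median difference was 0.85 log2 units over the 27 genes and -0.02 over all genes. Fgfr2 and Fgf15 passed the filter through the triple-mutant tumors alone, so these counts and medians describe the genes that passed and not the families. With 1 tumor left out, fewer values need to be in order, so counts without overlap rise for all genes too. The 10 became 18 without 26043 (33.2% of all genes) and 19 without 26048 (36.4% of all genes). The 2 became 4 without 26043 (45.1% of all genes), 5 without 26044 (31.9%) and 4 without 26050 (36.3%). The median depended on single tumors: it became 0.48 without 26044 and 0.34 without 26050.

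**Figure D1:**
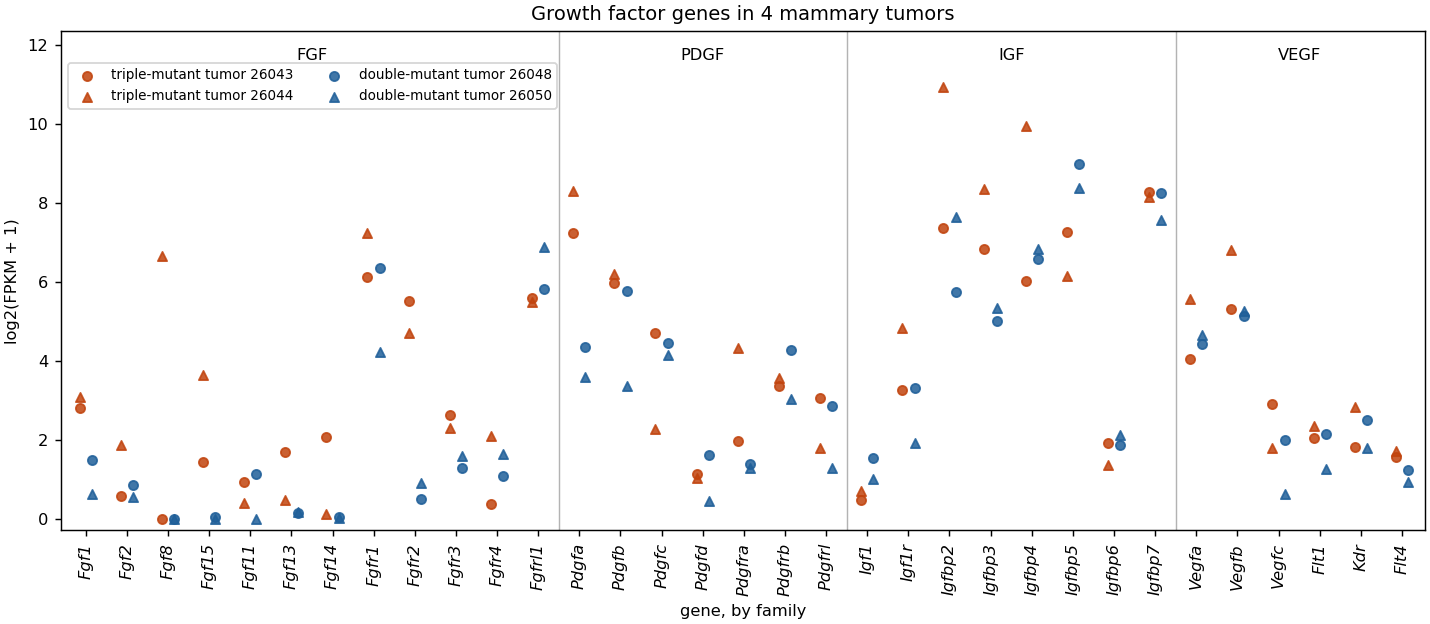
Expression, log2(FPKM + 1), of 33 growth factor genes by family in each of the 4 mammary tumors; orange marks are triple-mutant and blue marks double-mutant tumors, 1 mark a tumor. Fgfr2 and Pdgfa show both orange marks far above both blue marks, Igfbp5 the opposite order, and Fgf8 a single high tumor.

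The FGF receptors held the largest difference among these genes. Fgfr2 (chr7:130162451-130266808, mm10, minus strand) was at 44.5 and 25.1 FPKM in triple-mutant tumors 26043 and 26044 and at 0.4002 and 0.864 FPKM in double-mutant tumors 26048 and 26050. The gene was well expressed in both triple-mutant tumors and under 1 FPKM in both double-mutant tumors. Fgfr2 passed the filter through the triple-mutant tumors alone, so the filter fixed its order, and the lack of overlap is no separate result. Mean levels were 34.8 ± 13.7 and 0.632 ± 0.328 FPKM (SD, n = 2 each), a log2 difference of 4.42 (SE 0.42) that ranked 20 of all 12752 genes toward the triple-mutant tumors and had the smallest adjusted p of the families (limma, adjusted p = 0.143). Leaving out 1 tumor gave 4.02 to 4.82. The 10 nearest tested genes on the chromosome, 5 on each side, had a median difference of 0.01 and a range of -0.26 to 1.81.

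Fgfr1 was the most abundant of the 4 FGF receptor kinases in every tumor, at 69.4 and 150 FPKM in the triple-mutant and 80.8 and 17.6 FPKM in the double-mutant tumors. Its genotypes overlapped, since 26048 lay above 26043, and 26050 was 2.14 log2 units under 26048 (difference 1.40, SE 0.83, limma adjusted p = 0.619). The difference was 0.33 without 26050. Fgfr3 was at 5.21 and 3.96 against 1.43 and 2.001 FPKM, with both triple-mutant tumors higher (1.04, SE 0.33, limma adjusted p = 0.480). Fgfr4 was at 0.297 and 3.25 against 1.13 and 2.14 FPKM, so that the lowest and the highest tumor shared a genotype (-0.14, SE 0.66, limma adjusted p = 0.949), and its FPKM lay above its own Cufflinks interval in 26044, 26048 and 26050. Fgfrl1, a receptor that lacks the kinase domain, was at 47.8 and 44.4 against 55.2 and 117 FPKM, with both double-mutant tumors higher (-0.79, SE 0.43, limma adjusted p = 0.597). Without 26050 this difference was -0.26.

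The makeup of FGF receptor RNA followed from these levels. Fgfr2 made up 37.3% and 13.8% of the summed FPKM of the 4 kinase receptors in triple-mutant tumors 26043 and 26044, and 0.478% and 3.82% in double-mutant tumors 26048 and 26050. Fgfr1 made up 58.1% and 82.2% in the triple-mutant and 96.5% and 77.9% in the double-mutant tumors. The share of Fgfr1 thus overlapped between genotypes and the share of Fgfr2 did not. Summed FPKM of the receptors was 119 and 182 against 83.7 and 22.6.

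Of the 18 secreted FGF ligands, 14 were under 1 FPKM in every tumor, and 2 were tested. Fgf1 (chr18:38838673-38918699, minus strand), a ligand that binds all FGF receptors, was at 5.99 and 7.52 FPKM in the triple-mutant and 1.79 and 0.556 FPKM in the double-mutant tumors. Both triple-mutant tumors were higher (1.89, SE 0.42, limma adjusted p = 0.377), and leaving out 1 tumor gave 1.47 to 2.31. Its FPKM lay below the Cufflinks interval in both triple-mutant tumors, and with the interval midpoint the difference was 2.11. Fgf15 (chr7:144896532-144900951, plus strand), known as the ileal hormone that lowers bile acid synthesis in the liver, was at 1.73 and 11.57 FPKM in the triple-mutant tumors, at 0.0222 FPKM in 26048 and listed at 0 in 26050. It was above 1 FPKM in the triple-mutant tumors alone, so the filter fixed its order, and those tumors lay 2.20 log2 units apart (2.53, SE 0.79, limma adjusted p = 0.480). Without 26044 the difference was 1.43.

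Fgf8, a ligand with roles in embryonic patterning, was at 99.6 FPKM in triple-mutant tumor 26044 and listed at 0 in the other 3 tumors. It was the most abundant FGF ligand value of all, and it came from 1 tumor, so the gene did not reach the filter and has no test. The Cufflinks interval of that value was 91.6 to 108 FPKM. The 10 nearest tested genes had differences between genotypes of -0.62 to 1.36, median 0.14. A difference between genotypes averages 26044 with 26043 and does not show what is high in 26044 alone. The median log2(FPKM + 1) of these neighbours was 3.85 in 26043, 4.44 in 26044, 3.84 in 26048 and 3.59 in 26050. Npm3, for example, was at 82.8 and 172 against 79.0 and 107 FPKM. The cause was not tested. Fgf2 also reached 1 FPKM only in 26044, at 2.63 FPKM, against 0.498 in 26043, 0.799 in 26048 and 0.467 in 26050. That value of Fgf2 lay above its own Cufflinks interval, 0.715 to 1.98 FPKM, which extends below 1 FPKM. Ligands of the FGF7 subfamily, which signal through the epithelial form of FGFR2, were all under 1 FPKM: Fgf10 did not exceed 0.149, Fgf7 lay between 0.212 and 0.442, and Fgf22 between 0 and 0.802 FPKM. The values of Fgf10, Fgf7 and Fgf22 were chosen after they were seen.

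The intracellular FGFs bind voltage-gated sodium channels and are not secreted. None of the 4 reached the filter. Fgf14 was at 3.20 FPKM and Fgf13 at 2.25 FPKM in triple-mutant tumor 26043, and both were under 0.4 FPKM in each of the other tumors. Fgf11 was at 0.904 and 0.321 FPKM in the triple-mutant tumors and at 1.19 and 0 FPKM in the double-mutant tumors. So 26043 had the highest value of 2 intracellular FGFs, and 26044 of Fgf8, Fgf2 and Fgf15.

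Fgf15 lies in a cluster with Fgf3, Fgf4 and Ccnd1, which encodes cyclin D1. Fgf3 was at 0.191 and 0.205 FPKM in the triple-mutant tumors and 0.0578 and 0 FPKM in the double-mutant tumors, and Fgf4 did not exceed 0.0227 FPKM. Ccnd1, which starts 33.4 kb after the start of Fgf15, was at 302 and 342 FPKM in the triple-mutant tumors and 33.96 and 17.03 FPKM in the double-mutant tumors. It was higher in both triple-mutant tumors, with a log2 difference of 3.68 (SE 0.41, limma adjusted p = 0.167). Oraov1, which lies between the 2 genes, differed by 0.53, and Ano1, 308 kb before Fgf15, by -0.75. Over the 9 tested neighbours the median was 0.09, with a range of -1.27 to 3.68. Fgf3, Fgf4 and the neighbours were named after their values were seen.

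**Figure D2:**
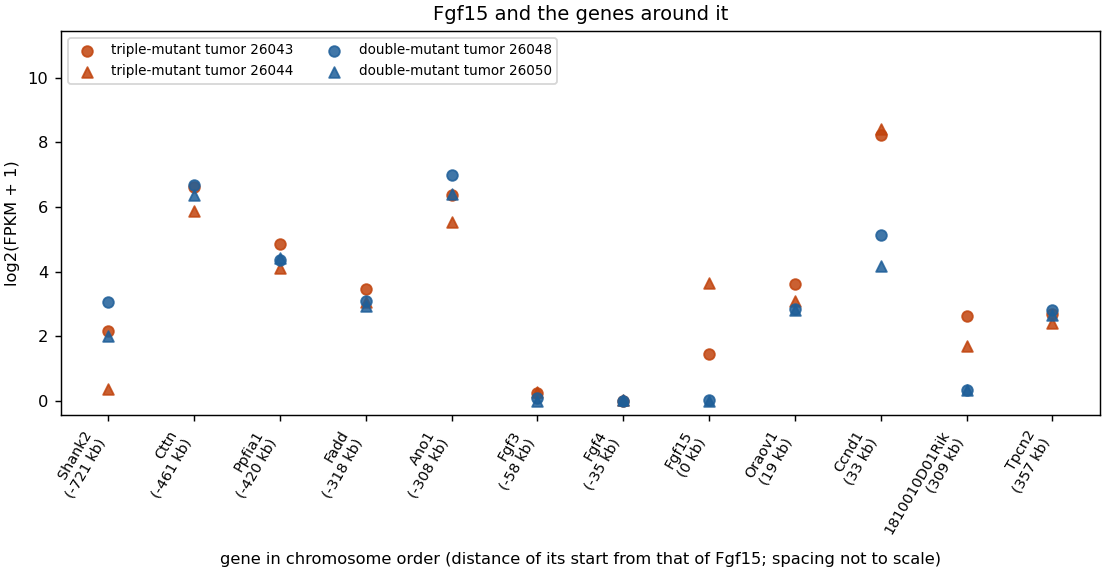
Expression, log2(FPKM + 1), of Fgf15 and genes around it in chromosome order in each of the 4 tumors; the number under a gene is the distance of its start from that of Fgf15 in kb, and genes are evenly spaced. Fgf15, Ccnd1 and 1810010D01Rik show both orange (triple-mutant) marks well above both blue (double-mutant) marks, while Cttn, Fadd and Tpcn2 differ little.

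Among PDGF ligands, Pdgfa (chr5:138976972-138994953, minus strand), whose product signals through PDGFRα, was at 149 and 317 FPKM in triple-mutant tumors 26043 and 26044 and at 19.5 and 11.03 FPKM in double-mutant tumors 26048 and 26050. Each triple-mutant tumor was above each double-mutant tumor. Means were 233 ± 118 and 15.3 ± 6.0 FPKM (SD, n = 2 each), 15.3-fold apart, with a log2 difference of 3.80 (SE 0.50, limma adjusted p = 0.184) that ranked 42 of all genes toward the triple-mutant tumors. Leaving out 1 tumor gave 3.26 to 4.34. The deposited FPKM of Pdgfa lay above its own Cufflinks interval in all 4 tumors, and across the alternatives that kept all 4 tumors, the interval midpoint included, the difference was 3.69 to 3.88. Its 10 nearest tested genes had a median difference of 0.30 and a range of -0.36 to 1.52.

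Pdgfb was at 61.5 and 72.5 FPKM in the triple-mutant and 53.9 and 9.22 FPKM in the double-mutant tumors. The genotypes did not overlap, but 26048 lay close to the triple-mutant tumors and 2.43 log2 units above 26050 (1.52, SE 0.85, limma adjusted p = 0.598). Without 26050 the difference was 0.30. The FPKM of Pdgfb also lay above its own interval in all 4 tumors, and with the interval midpoint the difference was 1.34. Pdgfc was at 25.2 and 3.87 FPKM against 20.98 and 16.7 FPKM, with 26044 alone low (-0.81, SE 0.86, limma adjusted p = 0.768), and its sign turned to 0.41 without 26044. Pdgfd, named after its values were seen, lay between 0.354 and 2.08 FPKM, with both ends of this range in the double-mutant tumors. Pdgfa thus made up 70.8% and 81.4% of the summed FPKM of Pdgfa and Pdgfb in the triple-mutant tumors, and 26.6% and 54.5% in the double-mutant tumors.

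Pdgfra, the receptor of PDGF-A, was at 2.90 and 19.1 FPKM in the triple-mutant and 1.63 and 1.44 FPKM in the double-mutant tumors. Only 26044 was far from the rest, by 2.37 log2 units from the other triple-mutant tumor (1.81, SE 0.84, limma adjusted p = 0.553), and without it the difference was 0.62. Pdgfrb, a pericyte and fibroblast receptor, was at 9.32 and 10.9 against 18.4 and 7.15 FPKM, with both triple-mutant values between the double-mutant ones (-0.18, SE 0.51, limma adjusted p = 0.919). Without 26048 it was 0.44. Pdgfrl, a receptor-like gene, was at 7.30 and 2.48 against 6.29 and 1.42 FPKM and overlapped (0.35, SE 0.73, limma adjusted p = 0.886), with -0.27 without 26043 and -0.44 without 26050.

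The start regions of Fgfr2 and Pdgfa are shown because these genes had the largest differences between genotypes. Each sequence holds 250 bases before and 50 after the RefSeq start on GRCm38.p6, 5′ to 3′ on the gene's strand, at chr7:130266759-130267058 for Fgfr2 and chr5:138994895-138995194 for Pdgfa. Capitals mark the motif matches.
Fgfr2: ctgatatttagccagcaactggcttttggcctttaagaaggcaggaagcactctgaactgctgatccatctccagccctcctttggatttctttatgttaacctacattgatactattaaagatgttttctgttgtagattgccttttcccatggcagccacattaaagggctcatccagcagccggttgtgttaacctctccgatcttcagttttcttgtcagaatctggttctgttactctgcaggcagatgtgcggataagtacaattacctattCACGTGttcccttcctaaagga
Pdgfa: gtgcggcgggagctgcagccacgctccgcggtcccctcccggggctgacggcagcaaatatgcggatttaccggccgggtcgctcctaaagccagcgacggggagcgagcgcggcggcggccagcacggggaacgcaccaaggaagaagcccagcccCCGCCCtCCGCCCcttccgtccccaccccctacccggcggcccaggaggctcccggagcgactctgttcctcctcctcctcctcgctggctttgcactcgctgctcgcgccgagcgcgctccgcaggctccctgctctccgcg
Both strands were searched for the core promoter element TATAAA, the GC box spelled GGGCGG, the NF-Y element CCAAT, the E-box spelled CACGTG and the AP-1 element TGACTCA, and no matches overlapped. The Fgfr2 window held 1 CACGTG, as do 7.15% of 32851 RefSeq promoter windows of this length, and none of the other motifs. The Pdgfa window held 2 GC boxes, read as CCGCCC on this strand, a motif found in 35.7% of all windows. The windows differed in base composition, with 43.7% G and C for Fgfr2 and 73.3% for Pdgfa, against a median of 52.7% over all windows. Of the 50 genes, 40 had a RefSeq window.

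Of the 7 IGF binding proteins, 5 were at 31.5 FPKM or more in every tumor, Igfbp6 was low and Igfbp1 was listed at 0. Igfbp3, the main carrier of IGFs in blood, was at 114 and 330 FPKM in the triple-mutant tumors and 31.5 and 39.7 FPKM in the double-mutant tumors. Both triple-mutant tumors were higher (2.42, SE 0.57, limma adjusted p = 0.396), and leaving out 1 tumor gave 1.65 to 3.18. Igfbp5 (chr1:72858065-72874865, minus strand) was at 154 and 70.7 FPKM in the triple-mutant and 508 and 336 FPKM in the double-mutant tumors. It was the only tested gene of these families higher in both double-mutant tumors by at least 1 log2 unit (-1.97, SE 0.49, limma adjusted p = 0.409), with -2.53 to -1.42 on leaving out 1 tumor. Igfbp2 (chr1:72824480-72852471, plus strand), whose start is 33.6 kb from that of Igfbp5, was at 164 and 1968 FPKM against 52.5 and 200.1 FPKM. Its genotypes overlapped and both pairs of tumors were far apart, by 3.57 and 1.91 log2 units (2.46, SE 1.37, limma adjusted p = 0.598). Without 26044 the difference was 0.67, so the adjacent genes Igfbp2 and Igfbp5 had differences of opposite sign, and the one for Igfbp2 rested largely on 26044. The deposited FPKM of Igfbp2 lay above its own Cufflinks interval in all 4 tumors and that of Igfbp5 below, and across the alternatives that kept all 4 tumors the differences were 2.31 to 2.47 and -2.01 to -1.91.

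Igfbp4 was at 64.4 and 1001 FPKM in the triple-mutant and 95.7 and 113 FPKM in the double-mutant tumors. As for Igfbp2, 26044 stood far above the rest (1.29, SE 1.33, limma adjusted p = 0.759), and without it the sign turned to -0.68. Its FPKM lay above its own interval in all 4 tumors, and with the interval midpoint the difference was 1.26. Igfbp7 lay between 189 and 309 FPKM and Igfbp6 between 1.59 and 3.34 FPKM in all tumors, with overlap in both, and Igfbp7 and Igfbp6 were named after their values were seen. Igfbp7 overlaps Polr2b, at 22.1 to 30.9 FPKM, in the annotation. Summed FPKM of the 7 binding proteins was 808 and 3657 in the triple-mutant and 996 and 881 in the double-mutant tumors. Igfbp5 made up 19.1% and 1.93% of these sums in the triple-mutant tumors and 51.0% and 38.2% in the double-mutant tumors, while Igfbp2 made up 20.3% and 53.8% against 5.27% and 22.7%. With interval midpoints in place of FPKM, chosen after seeing the data, the share of Igfbp2 was 11.2% and 38.5% against 2.73% and 12.37%, that of Igfbp5 was 25.6% and 3.90% against 58.2% and 49.2%, and the sums were 738 and 2307 against 1054 and 806, so the shares depend on which estimate is used.

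Igf1, the ligand, was at 0.395 and 0.631 FPKM in the triple-mutant and 1.93 and 0.996 FPKM in the double-mutant tumors and did not reach the filter. Both triple-mutant values were under both double-mutant values. Igf1r, its receptor, was at 8.54 and 27.3 against 9.01 and 2.76 FPKM, with overlap and a spread within each genotype of over 1 log2 unit (1.42, SE 0.76, limma adjusted p = 0.587). Its difference was 0.64 without 26044. Igf2, the other IGF ligand, which the symbol rule did not take and which was named after its values were seen, was at 11.04 and 0.353 FPKM against 9.35 and 38.1 FPKM.

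**Figure D3:**
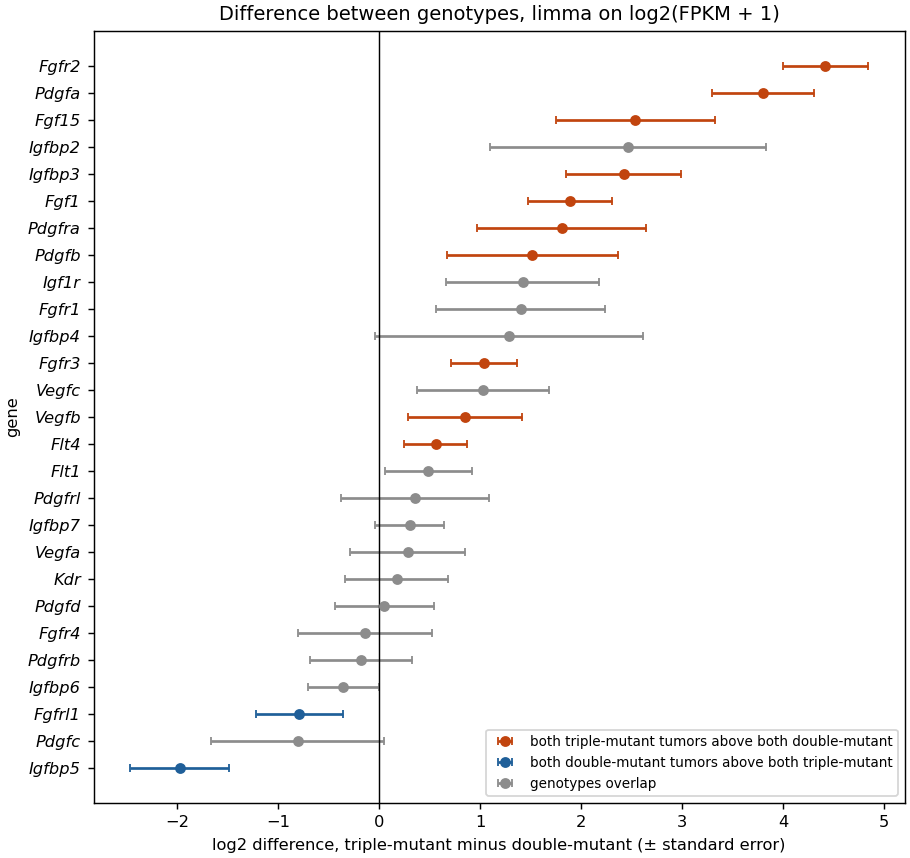
Log2 difference, triple-mutant minus double-mutant tumors, of the 27 tested genes with its standard error from limma on log2(FPKM + 1). Orange genes had both triple-mutant tumors higher (10 genes), blue genes both double-mutant tumors higher (2 genes, Igfbp5 and Fgfrl1), and grey genes overlapped (15 genes); none passed an adjusted p of 0.05.

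VEGF ligands and receptors differed less. Vegfb was at 38.5 and 112 FPKM in the triple-mutant and 34.4 and 37.7 FPKM in the double-mutant tumors, so 26044 was high and 26043 was just above the double-mutant tumors (0.85, SE 0.56, limma adjusted p = 0.646). Without 26044 this was 0.09. Vegfa, the main angiogenic ligand, was at 15.6 and 46.7 against 20.4 and 24.0 FPKM, and its difference of 0.28 (SE 0.57) turned to -0.48 without 26044. Vegfc, a lymphatic growth factor, was at 6.45 and 2.46 against 3.01 and 0.545 FPKM and overlapped (1.03, SE 0.66), with 0.47 without 26043, 0.34 without 26050 and up to 1.72 without 26048. Vegfa and Vegfc were named after their values were seen. Vegfd carries its older symbol Figf in the tables, so the symbol rule did not take it: it was at 1.49 and 0.421 against 1.01 and 0.617 FPKM.

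The receptors were low in every tumor. Flt1 (VEGFR1) was at 3.13 and 4.07 FPKM in the triple-mutant and 3.45 and 1.40 FPKM in the double-mutant tumors, with overlap (0.49, SE 0.43, limma adjusted p = 0.724), and without 26050 the difference was 0.039. Kdr (VEGFR2), the main receptor on blood endothelium, was at 2.49 and 6.11 against 4.66 and 2.45 FPKM, with overlap (0.17, SE 0.51, limma adjusted p = 0.922), and its sign turned without 26044 (-0.34) and without 26050 (-0.18). Flt4 (VEGFR3), known for lymphatic endothelium, was at 1.93 and 2.29 against 1.33 and 0.898 FPKM, with both triple-mutant tumors higher (0.56, SE 0.31, limma adjusted p = 0.598). Endothelial markers ordered the tumors in the same way as Kdr and Flt1: the summed FPKM of 18 markers was 131 and 367 in the triple-mutant and 182 and 106 in the double-mutant tumors, none at 0, with 3 of 15 tested higher in both triple-mutant tumors (20%, near the 21.3% of all genes) and 0 in both double-mutant tumors (22.9% of all genes). Their part in the values of the VEGF receptors was not tested.

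Hgf was between 0.0398 and 0.484 FPKM in all tumors. Its receptor Met, the gene of largest difference among 10 partners of HGF (activating proteases, inhibitors and receptors), was at 13.2 and 0.661 FPKM in the triple-mutant tumors and 726 and 386 FPKM in the double-mutant tumors. Both double-mutant tumors were far above both triple-mutant tumors (-6.77, SE 1.10, limma adjusted p = 0.231). In the same list Mst1, a related ligand, was at 7.55 and 4.79 against 0.0227 and 0.0449 FPKM, and Plau, the urokinase protease, at 36.2 and 98.995 against 11.7 and 16.3 FPKM. Of the 8 tested partners, 2 were higher in both triple-mutant tumors (25.0%, against 21.3% of all genes) and 3 in both double-mutant tumors (37.5%, against 22.9%). Mst1 passed the filter through the triple-mutant tumors alone, so the filter fixed its order.

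Spread within a genotype was large for these genes. The median absolute difference between the triple-mutant tumors was 1.10 log2 units over the 27 tested genes and 0.45 over all genes, and that between the double-mutant tumors was 0.69 and 0.36. The triple-mutant tumors lay at least 2 log2 units apart for 5 genes (6.31% of all genes): Fgf15, Pdgfra, Igfbp2 and Igfbp4, higher in 26044, and Pdgfc, higher in 26043. The double-mutant tumors lay that far apart for Fgfr1 and Pdgfb (2.21% of all genes), both lower in 26050. Tumor 26044 held the highest value of 16 of the 27 genes (24.2% of all genes), and 26050 the lowest of 15 (28.2% of all genes).

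**Figure D4:**
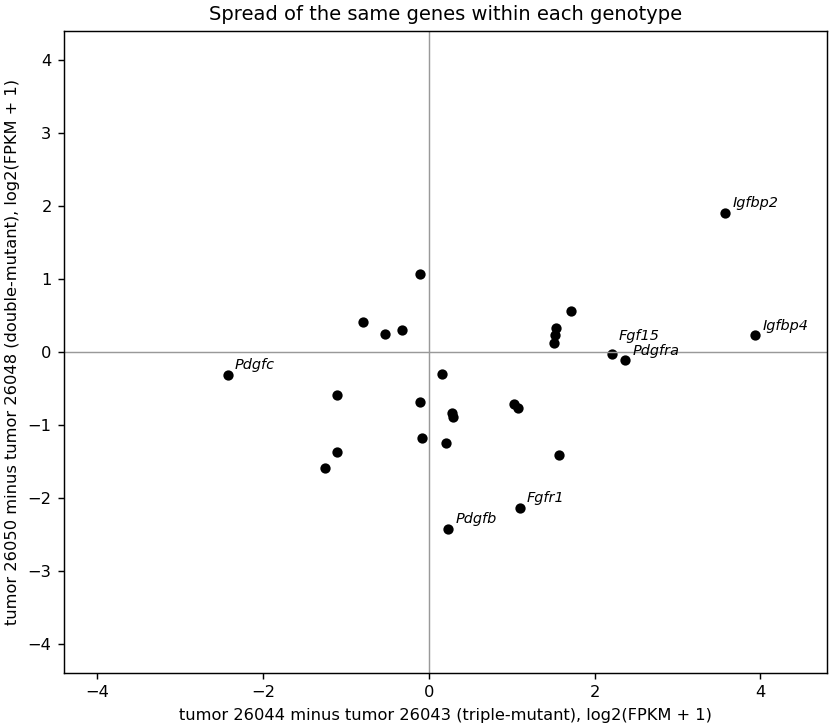
Difference between the 2 tumors of each genotype, in log2(FPKM + 1), for the 27 tested genes: triple-mutant tumors on the x axis (26044 minus 26043) and double-mutant tumors on the y axis (26050 minus 26048), with genes of at least 2 log2 units named. Igfbp2 and Igfbp4 lie farthest to the right, at 3.57 and 3.94, and Pdgfb lowest, at -2.43.

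Lists of partner genes were counted in the same way, beside 21.3% of all genes higher in both triple-mutant and 22.9% in both double-mutant tumors, and no gene in them passed the threshold. Of 21 FGF partners (binding proteins, adaptors, and feedback inhibitors and ETS factors that FGF signaling induces), 15 were tested, 1 was higher in both triple-mutant tumors, 2 in both double-mutant tumors, and 12 overlapped. Flrt3, which binds FGF receptors, was at 2.68 and 0.731 against 20.7 and 3.06 FPKM, Frs3, an adaptor of FGF receptors, at 2.24 and 3.27 against 1.06 and 1.15 FPKM, and Spry2, a feedback inhibitor, at 17.9 and 12.9 against 22.1 and 19.0 FPKM. The 1 higher in both triple-mutant tumors was Frs3. The median difference of the 15 was 0.15. Of 21 heparan sulfate coreceptors and enzymes, 20 were tested, 10 were higher in both triple-mutant and 3 in both double-mutant tumors, with a median of 0.75. Among them Gpc3, a glypican, was at 12.7 and 61.0 against 4.46 and 3.84 FPKM (2.50, SE 0.78), Gpc1, another glypican, at 60.9 and 157 against 22.2 and 15.0 FPKM (2.36, SE 0.54), and Hspg2, which encodes perlecan, at 21.1 and 43.5 against 18.1 and 6.50 FPKM (1.39, SE 0.62).

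Of 15 IGF partners 9 were tested, and 2 were higher in both triple-mutant tumors. These were Irs2, an adaptor of the IGF and insulin receptors, at 13.0 and 23.2 against 7.16 and 5.16 FPKM, and Stc1, an inhibitor of the protease that cleaves IGF binding proteins, at 1.91 and 6.05 against 0.781 and 0.604 FPKM. Stc1 passed the filter through the triple-mutant tumors alone, so the filter fixed its order. Of 14 VEGF partners 13 were tested, with 4 higher in both triple-mutant tumors and 1, Aplnr, in both double-mutant tumors. Pgf, placental growth factor and a ligand of FLT1, was at 15.0 and 34.8 against 3.34 and 11.54 FPKM (1.70, SE 0.70), and Angpt2, a ligand of the endothelial receptor TEK, at 1.96 and 12.28 against 1.54 and 1.503 FPKM. The 6 PDGF partners split 1 to 2, with 3 overlapping.

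Some marker lists of cell types also differed between genotypes. Over all genes, 21.3% were higher in both triple-mutant and 22.9% in both double-mutant tumors. All 6 basal epithelial markers were higher in both triple-mutant tumors, as were Fgfr2 and Pdgfa. Krt6a passed the filter through the triple-mutant tumors alone, so the filter fixed its order. The basal markers summed to 1846 and 373 FPKM in the triple-mutant and 12.2 and 15.4 FPKM in the double-mutant tumors, none at 0. Krt5 was at 596 and 114 against 1.15 and 2.06 FPKM. Between the triple-mutant tumors the basal sum, each keratin in it and Fgfr2 were lower in 26044, while Pdgfa was higher there, at 317 against 149 FPKM. The basal marker Trp63 was also higher in 26044, at 48.1 against 28.5 FPKM. Trp63 was named after its values were seen. Of 13 tested fibroblast markers, 8 were higher in both double-mutant tumors (61.5%), as was Igfbp5. Dpt, 1 of the 8, passed the filter through the double-mutant tumors alone, so the filter fixed its order. The fibroblast markers summed to 384 and 435 against 1472 and 625 FPKM, none at 0. Between the triple-mutant tumors this sum was higher in 26044, where Fn1 was at 109 against 22.5 FPKM in 26043. The mean log2(FPKM + 1) of the fibroblast markers was lower in 26044, at 3.06 against 3.48. Igfbp5 was also lower there, at 70.7 against 154 FPKM. Fn1 was named after its values were seen. Pericyte and smooth muscle markers summed to 127 and 999.5 against 113 and 66.1 FPKM, none at 0. Of the 10, 7 were highest in 26044, against 24.2% of all genes tested. So were 16 of the 27 growth factor genes, Igfbp4, Igfbp2 and Pdgfra among them, but Pdgfrb was highest in 26048. Acta2, which basal cells also express, made up most of the sum in 26044. It was at 64.8 and 898 against 59.7 and 31.8 FPKM. Without Acta2 the sums were 62.4 and 101 against 53.6 and 34.3 FPKM. Of 9 tested pericyte and smooth muscle markers, 3 were higher in both triple-mutant tumors (33.3%) and 1, Des, in both double-mutant tumors (11.1%). Des was at 2.49 and 3.75 against 6.85 and 7.71 FPKM. Notch3 was highest in 26043, at 25.4 and 8.31 against 7.61 and 1.82 FPKM. Cspg4, also highest in 26043, was at 6.43 and 4.10 against 6.16 and 2.50 FPKM, and Des and Cspg4 were named after their values were seen. Luminal epithelial markers summed to 3110 and 467 against 2541 and 2079 FPKM, lowest in 26044. Of 11 tested, 4 were higher in each genotype (36.4% each).

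Of the remaining lists, immune markers summed to 158 and 154 against 477 and 323 FPKM. Of 7 tested, 5 were higher in both double-mutant tumors (71.4%, against 22.9% of all genes). Adipocyte markers were high in 26048 alone, at 2105 FPKM in sum against 11.02 to 264 in the other tumors, with 4 of 8 at 0 in 26044. The sum of skeletal muscle markers was 34.3 FPKM in 26050 and under 3 FPKM in the other tumors. Of 6 lymphatic markers Pdpn was the 1 tested, at 25.4 and 205 against 5.08 and 5.83 FPKM, and Prox1, a defining gene of lymphatic endothelium named after its values were seen, did not exceed 0.203 FPKM. The part of these cell types in the growth factor values was not tested.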

How the data were processed

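PolyA RNA of 4 primary mouse mammary tumors, 2 a genotype, was made into dUTP libraries per the labels and sequenced as 50-bp single-end reads. According to the submitters' processing notes the authors aligned with TopHat2 2.0.10 and Bowtie 0.12.9 to mm10 and estimated FPKM with Cufflinks 2.1.1. What was deposited is 1 table a tumor, with a value in FPKM and its Cufflinks interval for every gene. The annotation version is not given in the sources used here. Read counts were not analysed here, so the count test of the study was replaced by limma 3.58.1 in R 4.3.3 (lmFit, eBayes with a trend) on log2(FPKM + 1), with genes of at least 1 FPKM in at least 2 tumors, Benjamini-Hochberg adjustment over all 12752 genes and a threshold of 0.05. Pseudocounts lower the differences of low genes. Tables were joined with Python 3.11.15 and pandas 2.3.3. For genes of these families at 1 FPKM or more, the interval's median half-width was 6.82% to 9.42%, and it covers the estimate in 1 tumor, not the spread between tumors. In each tumor 8 to 12 such genes had an FPKM beyond the bounds of its interval. Nothing says that tumors came from separate litters, and p-values measure the spread between these tumors only. All 50 genes overlapped their GENCODE M21 locus on GRCm38, the assembly also called mm10, and starts are counted from 1. Another row of the tables overlaps 8 of the 50.

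The genes, the partner and marker lists and the tests were chosen with earlier results of these data known. Genes were named where the genotypes did not overlap and differed by at least 1 log2 unit, where they were the most abundant of a family and role, where tumors of a genotype lay at least 2 log2 units apart, for all receptors, and for untested genes that reached 1 FPKM in any tumor. In lists, up to 3 genes of largest difference without overlap were named. Alternatives used the midpoint of the interval, a pseudocount of 0.1, quantile normalization, values rescaled to an equal sum in every tumor (TPM), limma with no trend, every gene above 0, genes of at least 5 FPKM, and 3 tumors at a time. Promoter windows came from RefSeq (GRCm38.p6).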

Additional observations from a re-analysis of the deposited data

How the results depend on the processing

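No gene of these families passed the threshold under any of the 11 alternatives. The smallest adjusted p among them was 0.107 to 0.918 across alternatives. Genes past the threshold among all tested numbered 0, but 6 after quantile normalization, 1 with the interval midpoint and 5 without the trend, and 0 on leaving out any tumor. The median difference of 0.85 was 0.28 with no filter (47 genes) and 1.29 with a filter of 5 FPKM (17 genes), and 0.34 to 0.93 on leaving out a tumor. The count higher in both triple-mutant tumors was 6 of 17 with a filter of 5 FPKM (20.9% of all genes) and 11 to 19 on leaving out a tumor. On leaving out a tumor, the count higher in both double-mutant tumors was 3 to 5. With the filter of 5 FPKM, 5 of the 17 were at an unadjusted p under 0.05 (limma), beside 939 of all 9529 genes. A count over 3 tumors needs fewer values to be in order. On leaving out a tumor, 30.8% to 40.2% of all genes were higher in the triple-mutant and 31.9% to 45.1% in the double-mutant tumors.

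Of 287 recomputed gene differences, 274 kept their direction and side of the threshold and 13 changed sign, in 9 of 27 genes. On leaving out a tumor, the range was -0.996 to 0.72 for Fgfr4 (0.72 without 26043, 0.14 without 26050), -0.68 to 3.26 for Igfbp4 (-0.68 without 26044), -0.041 to 0.65 for Igfbp7 (-0.041 without 26050), -0.34 to 0.69 for Kdr (-0.34 without 26044, -0.18 without 26050), -2.02 to 0.41 for Pdgfc (0.41 without 26044), -0.54 to 0.65 for Pdgfd (-0.54 without 26050), -0.81 to 0.44 for Pdgfrb (0.44 without 26048), -0.44 to 1.15 for Pdgfrl (-0.27 without 26043, -0.44 without 26050) and -0.48 to 1.04 for Vegfa (-0.48 without 26044). Pdgfd was -0.018 after quantile normalization. The cause was not tested. With 1 tumor left in a genotype, that tumor is assumed to vary like the others. Rescaling and quantile normalization moved the median of all genes to -0.05 each. No paired analysis was possible because the labels give no pairing of the tumors. FPKM without read counts leave the precision of low values unknown.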
